A study of Mus musculus with 2 samples.

Results

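The 39 genes described here encode proteins that make ribosomes in the nucleolus, and they were followed in single cells of 2 mouse lung tumors. The list was set by gene symbol, with earlier results of these data known. Counts of members set beside the share of all genes below therefore describe the list and do not test it. It holds 4 nucleolar scaffold, chaperone and helicase proteins, 7 proteins of the box C/D and box H/ACA particles, 7 of the RNA polymerase I machinery, 9 of small subunit assembly and 12 of large subunit assembly. All 39 were found among the 27998 genes of the files and all 39 had UMIs in both tumors. The tumors, TKO1 and TKO2, are small cell lung cancers of the triple-knockout model, in which Adeno-CMV-Cre given into the airways deletes Rb1, Trp53 and Rbl2 (the gene of p130) in mice that also carry the Rosa26 membrane-Tomato and membrane-GFP reporter. One tumor was taken from each of 2 mice of 8 to 9 months, 7 months after induction, on a background that mixes 129/SvOla, 129/SVJ and C57BL/6. Adeno-CMV-Cre is not restricted to 1 cell type, and the cells were sorted only as live (DAPI-negative) cells. Both tumors come from this same model of 3 deletions, so no sample of another genotype is here. Which cells carry the deletions was not checked. Each tumor gave 1 10x Chromium library, so no difference below has a replicate check and no p-value is given. Ranges in parentheses are exact 95% intervals that cover counting error only.

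Ribosome production starts when RNA polymerase I transcribes the ribosomal RNA precursor in the nucleolus. Small nucleolar particles modify this RNA, box C/D particles by methylation and box H/ACA particles by pseudouridylation, and assembly factors then fold, cut and export the small and large subunit precursors. Many of these genes are known targets of the Myc family of transcription factors, of which Mycl and Mycn are the members most often amplified in small cell lung cancer beside Myc. Dividing cells need new ribosomes, and the nucleolus is taken apart in mitosis.

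Of 4514 barcodes of TKO1 and 3816 of TKO2, those with more than 500 detected genes were retained, 3193 cells (70.7%, 69.4 to 72.1) and 3568 cells (93.5%, 92.7 to 94.3). Their median depth was 1223 and 1960 UMIs per cell, and 11 retained barcodes occurred in both libraries. Each tumor was clustered by itself with the 39 genes left out of the clustering genes. By their markers, 2993 cells of TKO1 in 8 clusters and 3381 cells of TKO2 in 9 clusters were neuroendocrine-like, 96 and 121 were macrophage-like, 104 cells of TKO1 were club-like, and 66 cells of TKO2 that held both club and neuroendocrine markers stayed unnamed. The neuroendocrine-like class takes in 1 cluster of TKO1 (498 cells) whose 10 leading genes hold the ciliated cell markers Cfap126, Dynlrb2 and Tppp3. It also takes in 2 clusters of TKO2 (467 and 276 cells) with Vwf and Tppp3 among theirs. By their leading genes these 3 clusters carry no name, and they were kept because 18, 16 and 13 of the 21 neuroendocrine markers were at least 2-fold above macrophage-like cells. Leading genes of the other neuroendocrine-like clusters also held no neuroendocrine marker, except Calca in a cluster of TKO1 (584 cells). The 21 neuroendocrine markers were all detected in both tumors but made up 2.41% of the UMIs of neuroendocrine-like cells of TKO1 and 0.244% of those of TKO2. They made up 0.404% in macrophage-like and 0.689% in club-like cells of TKO1. In TKO2 they made up 0.0937% in macrophage-like cells and 0.900% in the unnamed cluster. The name of the TKO2 cells thus rests on macrophage-like cells of the same tumor, and their marker share was below that of every class of TKO1. Each of the 11 marker lists of other cell types summed to at most 0.0575% of the UMIs of neuroendocrine-like cells. Over all 8756 genes with at least 100 UMIs in these cells of the 2 tumors together, the median log2 ratio of TKO2 to TKO1 was -0.26. Of the deleted genes, Rb1 had 77.1 and 15.2 CPM (UMIs per 1e+06 UMIs of the class) in neuroendocrine-like cells of TKO1 and TKO2, Trp53 48.9 and 63.0, and Rbl2 9.46 and 1.80. These end tags need not lie in the deleted exons and so do not check the deletions.

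In GENCODE M21 (GRCm38) the 39 genes lie on 18 chromosomes, with at most 6 on one. Mycn lies on chromosome 12 (12936093 to 12941914), which holds 0 of the 39, and Mycl on chromosome 4 (122995652 to 123002485), which holds Ebna1bp2, Mrto4 and Polr1e at 4.37, 16.3 and 78.0 Mb from it. The exons of 11 members overlap those of a coding gene on the other strand and none overlap one on the same strand. For 35 of the 39, RefSeq gave promoters (GRCm38.p6, from 250 bases before to 50 after the start). There was none for Npm1, Fbl, Bop1 and Rrs1, so the comparisons by promoter leave these out. The letters CACGTG, the E-box that Myc proteins are known to bind and that reads the same on both strands, were present in at least 1 window of 8 of the 35 members (22.9%), of 8.09% of all 27025 genes with a window, and of 12.4% of the 6797 of them that were counted in the tumor comparison. The 5 of these 8 members with the most UMIs in TKO2 are shown on the strand of the gene, with the E-box in capitals, because their levels are compared below by tumor and by Mycn.
Wdr43 (chr17:71616220-71616249, + strand, E-box from 17 bases after the start): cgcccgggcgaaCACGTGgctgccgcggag
Imp4 (chr1:34439696-34439725, + strand, E-box from 121 bases before the start): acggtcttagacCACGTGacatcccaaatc
Ltv1 (chr10:13193092-13193121, - strand, E-box from 28 bases after the start): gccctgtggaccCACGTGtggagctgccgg
Pes1 (chr11:3963965-3963994, + strand, E-box from 2 bases after the start): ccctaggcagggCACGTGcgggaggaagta
Nle1 (chr11:82908355-82908384, - strand, E-box from 23 bases after the start): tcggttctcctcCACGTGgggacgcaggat
The median log2 ratio of TKO2 to TKO1 was 1.11 for the 8 members with these letters and 1.35 for the 27 without, so the median was no higher with these letters than without. Between Mycn-high and Mycn-low cells of TKO2, described below, the medians were 0.48 and 0.38. For Wdr43, Imp4, Ltv1, Pes1 and Nle1 the log2 ratios of TKO2 to TKO1 were 1.24, 0.98, 1.82, 0.57 and 1.24. Those of Mycn-high to Mycn-low cells were 0.61, 0.51, -0.04, 0.39 and 0.45.

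The first comparison asked how the members differ between the tumors in neuroendocrine-like cells. Summed, they took 0.371% (0.366 to 0.377) of the UMIs of TKO1, 15717 UMIs, and 1.02% (1.01 to 1.02) of those of TKO2, 78957 UMIs, which is 2.74-fold higher in TKO2 (log2 1.45, 1.43 to 1.48). At least 1.5-fold higher in TKO2 were 33 of the 39 members, against 18.6% of all genes, and 1 was at least 1.5-fold higher in TKO1, against 37.0% of all genes. The other 5 were within 1.5-fold. The median over the members was 1.25 on the log2 scale, against -0.26 over all genes, and 38 of 39 were above 0, Rrp1 by less than 0.01, as were 38.8% of all genes. The interval lay above 0 for 36 members and below 0 for 1. Without the 3 clusters led by markers of another type the log2 ratio was 1.49, and 33 and 1 members were called.

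Among the scaffold, chaperone and helicase proteins, Npm1 (nucleophosmin, a histone and ribosomal protein chaperone) went from 556 CPM (534 to 579) in TKO1 to 3048 CPM (3009 to 3087) in TKO2, 5.48-fold. It supplied 29.96% of all member UMIs of TKO2 and 14.98% of those of TKO1. Ncl (nucleolin, which binds the ribosomal RNA precursor) had 325 and 774 CPM, Nolc1 (a chaperone of nucleolar particles) 30.96 and 103 CPM, and Ddx21 (an RNA helicase) 42.8 and 78.2 CPM. Without Npm1 and Ncl the summed share was still 2.24-fold higher in TKO2 (log2 1.16, 1.14 to 1.19). The difference therefore did not rest on the 2 scaffold proteins alone.

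The small nucleolar particles differed together. All 3 box C/D proteins were called higher in TKO2, with Fbl (fibrillarin, the methyltransferase) at 81.1 and 277 CPM, Nop58 at 76.1 and 194 CPM and Nop56 at 85.8 and 188 CPM. All 4 box H/ACA proteins were called as well. Nhp2 had 185 CPM (172 to 199) in TKO1 and 761 CPM (741 to 780) in TKO2, a log2 ratio of 2.04. Dkc1 (dyskerin, the pseudouridine synthase) had 34.3 and 136 CPM, Gar1 91.5 and 331 CPM, and Nop10 442 and 1195 CPM. The sums of the box C/D and box H/ACA proteins had log2 ratios of 1.44 (1.35 to 1.54) and 1.69 (1.63 to 1.74).

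Of the roles, RNA polymerase I and its factors differed least by their sum, with a log2 ratio of 0.39 (0.32 to 0.47). Most of this sum came from Polr1d and Polr1c in both tumors. The median over the 7 genes was 0.71, also the lowest of the roles. Polr1b, the second largest subunit, was 5.30-fold higher in TKO2 but rested on 11 UMIs in TKO1 (2.60 CPM, 1.30 to 4.65) against 107 in TKO2. Polr1a, the largest subunit, had 7.09 and 16.0 CPM, Polr1e 6.62 and 20.5 CPM, and Polr1c, which RNA polymerase III shares, 80.8 and 133 CPM, all called higher in TKO2. Polr1d, also shared with RNA polymerase III, was within 1.5-fold at 271 and 356 CPM, and Rrn3, which recruits the polymerase, at 8.51 and 10.8 CPM, with a log2 ratio of 0.35 (-0.23 to 0.95) whose interval holds 0. Ubtf, which binds the ribosomal DNA promoter, was the only member called higher in TKO1, with 82.0 CPM (73.6 to 91.1) against 53.2 CPM (48.2 to 58.6) in TKO2 (log2 -0.62). It kept this direction but was not called relative to the median of all genes or with TMM factors. Both scalings called 36 members higher in TKO2, against 26.2% (median) and 30.7% (TMM) of all genes. Both called 0 members higher in TKO1, against 2518 and 2221 of 8756 genes.

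Of small subunit assembly, all 9 proteins were called higher in TKO2, from Imp3 (log2 0.64, 0.50 to 0.78) to Ltv1 (log2 1.82, 1.47 to 2.18). Rrp9, a protein of the U3 particle, had 24.6 and 84.0 CPM. Emg1, a methyltransferase of the small subunit RNA, had 207 and 363 CPM. Of large subunit assembly, 9 of 12 were called, led by Wdr12 (24.8 and 98.4 CPM), Nop16 (39.2 and 151 CPM) and Nop2, a methyltransferase of the large subunit RNA (8.75 and 30.02 CPM). Wdr12 acts in a complex with Pes1 and Bop1, and its partners differed less, with log2 ratios of 1.99 (1.69 to 2.30) for Wdr12, 0.79 (0.46 to 1.12) for Bop1 and 0.57 (0.32 to 0.83) for Pes1. Ebna1bp2 had 208 and 240 CPM, and Rrp1 was level at 174 CPM in both tumors (log2 0.00, -0.13 to 0.13). The plot of the 39 members shows these levels by role.

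**Figure D1:**
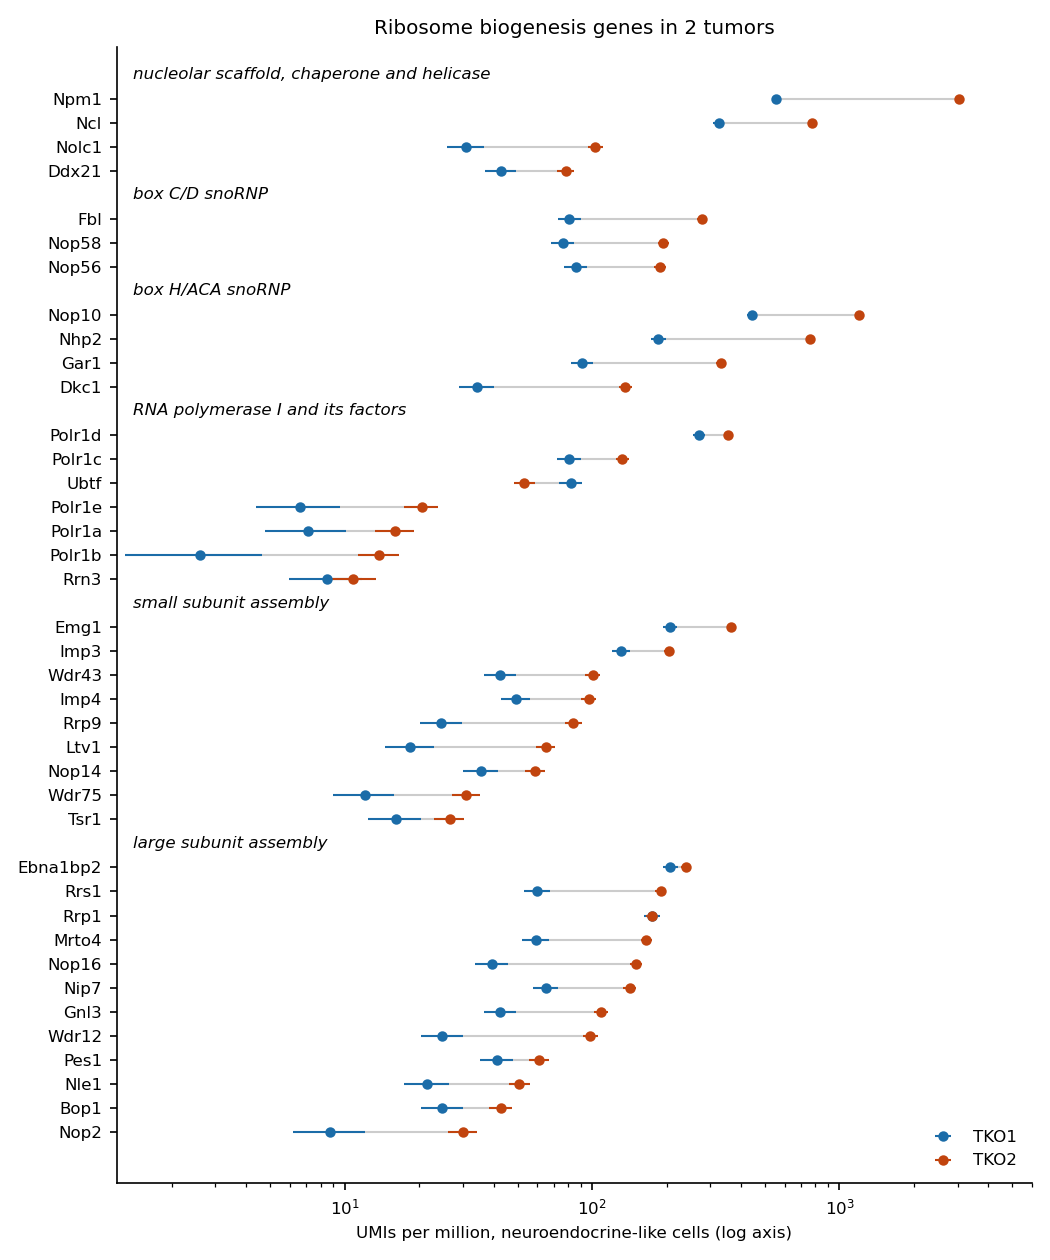
Level of each member in neuroendocrine-like cells of TKO1 (blue) and TKO2 (orange), in CPM on a log axis, grouped by role and ordered by the level in TKO2. Bars are exact 95% Poisson intervals; TKO2 lies to the right except for Rrp1, which coincides at 174 CPM, and Ubtf, which lies to the left; levels in TKO2 span Npm1 at 3048 CPM to Rrn3 at 10.8 CPM.

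Other genes of ribosome production differed less. Of 117 counted genes of a wider list of assembly factors, 56 were called higher in TKO2 and 8 in TKO1, against 18.6% and 37.0% of all genes, with a log2 ratio of the sum of 0.59 (0.56 to 0.61) and a median of 0.57. The 3 that differed most toward TKO2 were Ppan (log2 2.19), Rcl1 (2.16) and Rrp15 (2.14). Gnl3l (log2 -2.001), Naf1 (-1.94), an assembly factor of box H/ACA particles, and Gnl2 (-1.10) were higher in TKO1. RNA polymerase III and its factors, which make the smallest ribosomal RNA and the transfer RNAs, had a log2 ratio of the sum of 0.02, with an interval that holds 0 (-0.04 to 0.07), with 5 of 18 called higher in TKO2 (18.6% of all genes), among them Polr3e (log2 1.19) and Polr3g (1.10), and 3 in TKO1 (37.0%), Polr3gl (-1.26), Gtf3c5 (-1.18) and Gtf3c1 (-0.96). The ribosomal proteins themselves, 86 genes, summed to 10.8% in TKO1 and 23.4% in TKO2 (log2 1.12). Mycn had 12.5 CPM in TKO1 and 2880 CPM in TKO2, Mycl 201 and 33.8 CPM, and Myc 9.93 and 0.77 CPM. Tumor, mouse and library are the same division here and cannot be told apart.

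Within each tumor the summed share varied by less than between the tumors. Over the 8 neuroendocrine-like clusters of TKO1 the summed share ran from 0.339% to 0.522%, 1.54-fold, and over the 9 of TKO2 from 0.759% to 1.22%, 1.61-fold, so that the lowest cluster of TKO2 lay above the highest of TKO1. The same held for 17 of the 39 members one by one (43.6%), against 6.29% of all genes, and for 0 members (12.3% of all genes) in the other direction. For the other 22 members the ranges over the clusters overlapped, and some varied more within a tumor than between them, such as Rrp1 (149 to 238 CPM in TKO1) and Ebna1bp2 (174 to 316 CPM in TKO2). Clusters of TKO1 held 452 to 978 CPM of Npm1 and 108 to 368 CPM of Nhp2, and those of TKO2 held 2066 to 3933 and 585 to 895 CPM. Ribosomal protein genes were apart in the same way, at 8.22 to 17.7% and 20.6 to 26.5%.

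The clusters with the highest shares were high in a different Myc family gene in each tumor. In TKO2 the summed share was lowest, 0.759% (0.740 to 0.778), in the cluster with the least Mycn (1182 CPM), and highest, 1.22% (1.202 to 1.249) and 1.21% (1.18 to 1.23), in the 2 clusters with the most (3858 and 3969 CPM). Pearson's r with Mycn was 0.97 over the 9 clusters and 0.95 without the 2 clusters highest in Mycn. In TKO1, which had 0 to 17.7 CPM of Mycn over its clusters, the highest share, 0.522% (0.498 to 0.547), was in the cluster with 1343 CPM of Mycl, followed by 0.409% in a mitotic cluster with 409 CPM. The other 6 clusters had 29.9 to 74.3 CPM of Mycl and 0.339 to 0.374% of the members. Pearson's r with Mycl was 0.98 over 8 clusters and 0.84 over those 6. The levels of those 6 rested on 18 to 38 Mycl UMIs each. Their order did not follow Mycl throughout, since the cluster with 29.9 CPM had 0.354% and one with 40.2 CPM had 0.339%. These clusters come from 1 library per tumor and were built on the same cells, so r is a description.

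**Figure D2:**
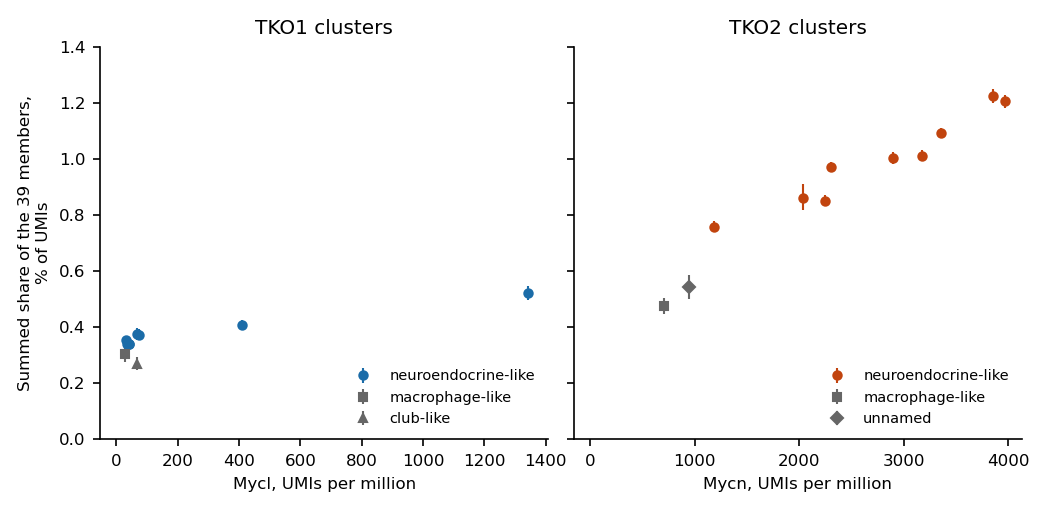
Summed share of the 39 members (% of UMIs) in each cluster against the level of Mycl in TKO1 (left) and of Mycn in TKO2 (right) in CPM, with exact 95% Poisson intervals. Circles are neuroendocrine-like clusters; grey symbols are the other classes. The share climbs with Mycn over the 9 circles of TKO2, from 0.759% to 1.22%, while in TKO1 a single circle at 1343 CPM of Mycl stands off at 0.522%.

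Each cell with at least 1000 UMIs was thinned to 1000 UMIs to compare cells at 1 depth, which kept 2152 of 2993 neuroendocrine-like cells of TKO1 and 3020 of 3381 of TKO2. Cells of TKO1 held a median of 3 member UMIs (5th to 95th percentile 1 to 8) and cells of TKO2 a median of 10 (4 to 18). None was found in 3.30% of the cells of TKO1 and 0.0331% of those of TKO2. The variance was 1.39 times the mean in TKO1 and 1.82 times in TKO2, where counting alone would give about the mean. Over single cells, Pearson's r of member UMIs was 0.227 with Mycn in TKO2 and 0.245 with Mycl in TKO1, below the r over clusters. With ribosomal protein genes it was 0.236 in TKO2 and 0.234 in TKO1, and with UMIs before thinning 0.151 and 0.0889. Counting error at 1000 UMIs can lower such values. The distributions overlap between the tumors, as the histogram of member UMIs per cell shows.

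**Figure D3:**
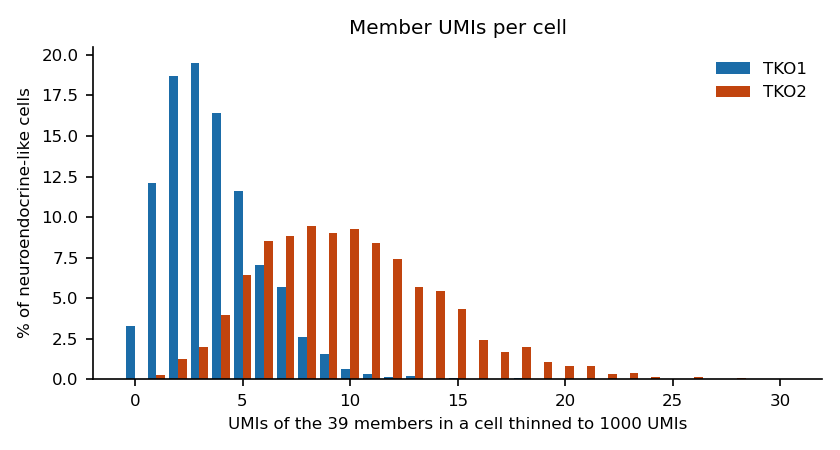
Share of neuroendocrine-like cells (%) by the number of UMIs of the 39 members in a cell thinned to 1000 UMIs, for TKO1 (blue) and TKO2 (orange). The bulk of TKO1 lies at 1 to 8 UMIs, with a median of 3, and that of TKO2 at 4 to 18, with a median of 10.

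The second comparison set the tumor cells against other cell classes. In TKO2 macrophage-like cells had 0.476% (0.448 to 0.505) member UMIs, a log2 ratio of -1.10 (-1.18 to -1.01) to the neuroendocrine-like cells, and in TKO1 0.302% (0.274 to 0.333), a log2 ratio of -0.30 (-0.44 to -0.16). In TKO2, 31 of 38 counted members were at least 1.5-fold lower in macrophage-like cells, against 51.9% of all genes, and 0 were higher (12.5%). In TKO1, 13 of 30 were lower, against 56.6% of all genes, and 2 were higher (10.3%), Imp4 and Nop16, on 12 and 9 UMIs of macrophage-like cells. The interval lay below 0 for 5 of these 30 and above 0 for 0. The minimum of UMIs over both sides was reached mostly through neuroendocrine-like cells, with 4230763 UMIs in TKO1 against 140213 of macrophage-like cells. It favors genes high in neuroendocrine-like cells, so counts of lower and higher members are not an even comparison. The same holds for each small class below. Npm1 showed the contrast: macrophage-like cells had 464 CPM in TKO1, close to the 556 CPM of its neuroendocrine-like cells, but 1194 CPM in TKO2, against 3048 CPM. Ncl had 371 CPM in macrophage-like cells of TKO1 and 302 CPM in those of TKO2. Nop58 had 64.2 and 79.9 CPM in macrophage-like cells, and Polr1d 342 and 293 CPM. The tumors were thus closer in macrophage-like than in neuroendocrine-like cells, with a log2 ratio of TKO2 to TKO1 of 0.65 (0.49 to 0.82) for the summed share against 1.45. Of the 5 members counted there, 3 (Npm1, Nhp2 and Nop10) were at least 1.5-fold higher in TKO2, against 15.8% of 576 genes, and 0 in TKO1 (8.68%).

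Macrophage-like cells of TKO2 also held 710 CPM of Mycn, where those of TKO1 held 7.13 CPM. The part of tumor cell RNA in these droplets was not tested. Those with 0 Mycn UMIs at 1000 UMIs (87 cells) had 0.377% (0.346 to 0.409) member UMIs, and those with 1 (16 cells) had 0.588% (0.512 to 0.672). With 2, with 3 or 4 and with 5 or more there were 2, 4 and 3 cells, at 1.24%, 0.799% and 0.983%. In these few cells macrophage markers took 0.0318%, 0.207% and 0.790% of UMIs, against 4.77% in the 87 cells. The values of the whole class above include these few cells, and their identity was not tested. Over all their UMIs the 87 cells still held 150 CPM of Mycn. Against neuroendocrine-like cells the 87 cells gave a log2 ratio of -1.43. In cells of TKO2 with more than 1000 detected genes the log2 ratio was -0.62. Club-like cells of TKO1 had the lowest share, 0.270% (0.247 to 0.294), a log2 ratio of -0.46 (-0.59 to -0.34), with 15 of 30 members at least 1.5-fold lower, against 60.4% of all genes, and 1, Polr1c, higher (5.47%). The median of all genes was -0.76 in this comparison and -0.69 for macrophage-like cells of TKO1, and relative to it the ratios were 0.30 and 0.39. For macrophage-like cells of TKO2 the median was -0.58, and the ratio relative to it stayed below 0 at -0.52. These medians are over genes that reached the minimum of UMIs mostly through neuroendocrine-like cells. Such a choice of genes can lower the median, so the turned signs in TKO1 do not show a direction. The part of this choice was not tested. Club markers took 28.1% of the UMIs of club-like cells, against 0.0470% in neuroendocrine-like cells of TKO1. This lowers the share of all other genes there, and with it the median. The lowest share of the members therefore need not be a lower level per cell. A total without club markers was not taken. The unnamed cluster of TKO2 had 0.542% (0.501 to 0.585), a log2 ratio of -0.91, with 24 of 38 members lower, against 34.0% of all genes, and 0 higher (22.6%).

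The third comparison divided the thinned neuroendocrine-like cells by cycling state. Cells with at least 2 UMIs of 34 mitotic genes were called mitotic. Of the rest, those with at least 2 UMIs of 30 replication genes were called S-phase. Cells with 0 UMIs of both lists were called non-cycling, and the remainder other. Replication genes took 0.355% of all UMIs of mitotic and 0.376% of S-phase cells of TKO1, and 0.454% and 0.444% in TKO2. They thus did not set the mitotic class apart from S-phase cells. Values of the mitotic class need not be those of cells in mitosis. States, and the Mycn and Mycl bins that follow, were read from the thinned cells, and shares were then taken over all UMIs of the cells. In TKO1 the summed share was 0.343% (0.325 to 0.361) in 290 non-cycling cells, 0.348% in 465 other cells, 0.369% (0.359 to 0.379) in 945 S-phase cells and 0.413% (0.3997 to 0.4268) in 452 mitotic cells. In TKO2 it was 1.08% (1.02 to 1.13) in 74 non-cycling cells, 1.04% in 200, 1.02% (1.01 to 1.04) in 1235 and 1.02% (1.01 to 1.03) in 1511 cells. The log2 ratio of mitotic to non-cycling cells was 0.27 (0.18 to 0.36) in TKO1 and -0.08 (-0.16 to -0.01) in TKO2, and that of S-phase cells 0.11 (0.02 to 0.19) and -0.07 (-0.15 to 0.004). Thinned to 1500 UMIs, the ratios of mitotic cells were 0.16 and 0.03, and those of S-phase cells 0.003 and 0.04, so both signs in TKO2 turned. Cycling state thus moved the summed share by far less than the 2.74-fold between the tumors. Of macrophage-like cells 12.5% in TKO1 and 22.3% in TKO2 were also called mitotic, and of those of TKO2 with 0 Mycn UMIs 21.8%. Whether these cells divide or hold RNA of other cells was not tested.

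Of 15 counted members, 4 were at least 1.5-fold higher in mitotic cells of TKO1, against 15.9% of all genes, and 0 lower (10.5%). These were Nhp2 (124 and 243 CPM, log2 0.98, 0.54 to 1.44), Nop58 (56.0 and 107 CPM), Nop56 (65.3 and 107 CPM) and Ubtf (60.6 and 95.9 CPM). In TKO2, 5 of 35 were higher, against 27.8%, and 1, Ltv1, lower (11.1%). The 5 were Nop58, Ubtf, Nop14, Tsr1 and Nop2, whose non-cycling side rested on 1 to 18 UMIs. Nop58 and Ubtf were called in both tumors. In TKO2, though, the interval lay above 0 for 0 of the 35 members and below 0 for 3, so all 5 higher calls there have intervals that hold 0. Nhp2 was lower in mitotic cells of TKO2 (log2 -0.45), and the box H/ACA sum had log2 ratios of 0.36 (0.16 to 0.57) in TKO1 and -0.38 (-0.53 to -0.24) in TKO2. In S-phase cells of TKO1, 1 of 18 members, Nhp2, was called higher (8.06% of all genes) and 0 lower (3.57%). In S-phase cells of TKO2, 4 of 32 were higher (Ubtf, Nop14, Bop1 and Nip7, 19.7%) and 2 lower (Ltv1 and Nle1, 7.04%). The interval lay above 0 for 0 of these 32 members and below 0 for 1.

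Mycl moved with the states of TKO1, from 62.9 CPM in non-cycling to 410 CPM in mitotic cells, while Mycn had 2712 and 3059 CPM in those of TKO2. Among cells of TKO1 with 0 Mycl UMIs at 1000 UMIs, the summed share was 0.346% in non-cycling and 0.382% in mitotic cells, a log2 ratio of 0.14. Over all their UMIs these cells still held 4.91 and 76.5 CPM of Mycl. The median depth also rose with the states, from 1267 to 1742 UMIs in TKO1 and from 1666 to 2458 in TKO2, and its part was not tested.

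The fourth comparison ranked the cells of TKO2 by Mycn at 1000 UMIs. The summed share was 0.880% (0.865 to 0.895) in 679 cells with 0 Mycn UMIs, 0.9502% (0.9345 to 0.9660) with 1, 1.01% (0.997 to 1.03) with 2, 1.07% (1.05 to 1.08) with 3 or 4 and 1.19% (1.17 to 1.21) in 549 cells with 5 or more. The lowest of these was still above the share of any class of TKO1. However, 0 Mycn UMIs at 1000 UMIs does not mean that a cell lacks Mycn. Over all their UMIs the 679 cells held 603 CPM of Mycn, against 12.5 CPM in neuroendocrine-like cells of TKO1. Cells with 5 or more against those with 0 or 1 gave a log2 ratio of 0.38 (0.35 to 0.41), 1.30-fold. At least 1.5-fold higher in Mycn-high cells were 9 of 35 members, against 2.84% of all genes, and 0 were lower (9.19%), and 33 of 35 were above 0, against 44.9% of all genes.

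The 9 were spread over the roles, with 4 of 12 counted members of large subunit assembly, 3 of 9 of small subunit assembly, 1 of 3 box C/D proteins and 1 of 4 scaffold proteins. Large subunit assembly gave Rrs1 (150 and 273 CPM, log2 0.86, 0.66 to 1.06), Gnl3 (nucleostemin, a GTPase of the nucleolus, 83.2 and 149 CPM), Nop2 (23.7 and 41.1 CPM) and Nip7 (118 and 184 CPM). Small subunit assembly gave Tsr1 (18.3 and 34.9 CPM), Wdr43 (84.6 and 129 CPM) and Rrp9 (72.4 and 110 CPM). Ddx21 (64.3 and 113 CPM) and Fbl (224 and 353 CPM) were the other two. Polr1d (log2 -0.02, -0.18 to 0.13) and Ltv1 (log2 -0.04, -0.42 to 0.32) had intervals that hold 0. Nop10 (log2 0.09, 0.01 to 0.17) was within 1.5-fold although it was 2.71-fold higher in TKO2 than in TKO1.

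Of 38 members with enough UMIs, 8 were higher in each bin of Mycn than in the one before (21.1%), against 199 of 6627 genes (3.003%). They were Npm1, Ncl, Nolc1, Ddx21, Nop58, Dkc1, Gar1 and Gnl3. Npm1 went through 2545, 2790, 3007, 3256 and 3676 CPM from the lowest to the highest bin. Ncl went through 617, 727, 756, 811 and 987 CPM. Gnl3 went through 77.7, 88.8, 111, 120 and 149 CPM. In Npm1 the span over the bins was 1.44-fold, against 5.48-fold between the tumors.

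Other measures moved with Mycn as well. The share of mitotic cells went from 43.4% to 57.6% over the bins, the median depth before thinning from 1917 to 2313 UMIs and ribosomal protein genes from 22.1% to 24.6% of UMIs. Within mitotic cells alone the summed share went from 0.870% to 1.16%. In the 74 non-cycling cells it did not follow the bins, at 1.03%, 0.984%, 1.28%, 0.963% and 1.21%, with 8 to 23 cells in a bin. Of the wider list of assembly factors 10 of 92 were called higher in Mycn-high cells and 0 lower, against 2.84% and 9.19% of all genes, led by Mphosph10 (log2 0.83), Krr1 (0.77) and Ppan (0.72), and of RNA polymerase III genes 0 of 11 were called either way, which at these shares is near the background.

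The same was done with Mycl in TKO1, where 1938 cells had 0 Mycl UMIs, 132 had 1, 40 had 2 and 42 had 3 or more. Their summed shares were 0.356% (0.349 to 0.362), 0.440% (0.414 to 0.469), 0.529% (0.479 to 0.582) and 0.665% (0.612 to 0.722). The 42 cells were 1.87-fold above the cells with none (log2 0.90, 0.78 to 1.03), and did not reach the 0.880% of the cells of TKO2 with 0 Mycn UMIs. At least 1.5-fold higher were 18 of 26 members, against 16.0% of all genes, and 0 were lower (39.4%). The interval lay above 0 for 12 of the 26 and below 0 for 0. Npm1 had 519 CPM (494 to 545) in cells with 0 Mycl UMIs and 1323 CPM (1091 to 1591) in the 42 cells, Nhp2 166 and 550 CPM, and Nip7 52.6 and 187 CPM. Nop58 had 74.7 and 211 CPM and Mrto4, a ribosomal stalk assembly factor, 59.0 and 164 CPM, while Rrp1 was level (log2 -0.01). The wider list of assembly factors differed less, with a log2 ratio of the sum of 0.295 (0.174 to 0.414) and a median of 0.202. Of its 61 counted genes 19 were called higher and 8 lower, against 16.0% and 39.4% of all genes. Of 9 RNA polymerase III genes 3 were higher and 1 lower. Ribosomal protein genes were at 10.1% and 20.1% of UMIs and the neuroendocrine markers at 2.50% and 0.629%, and 19.1% and 52.4% of the cells were mitotic. The part of these in the result was not tested. Within mitotic cells alone the log2 ratio was 0.79. Of the 42 cells 1 was non-cycling, and it held 4 member UMIs among its 1228.

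**Figure D4:**
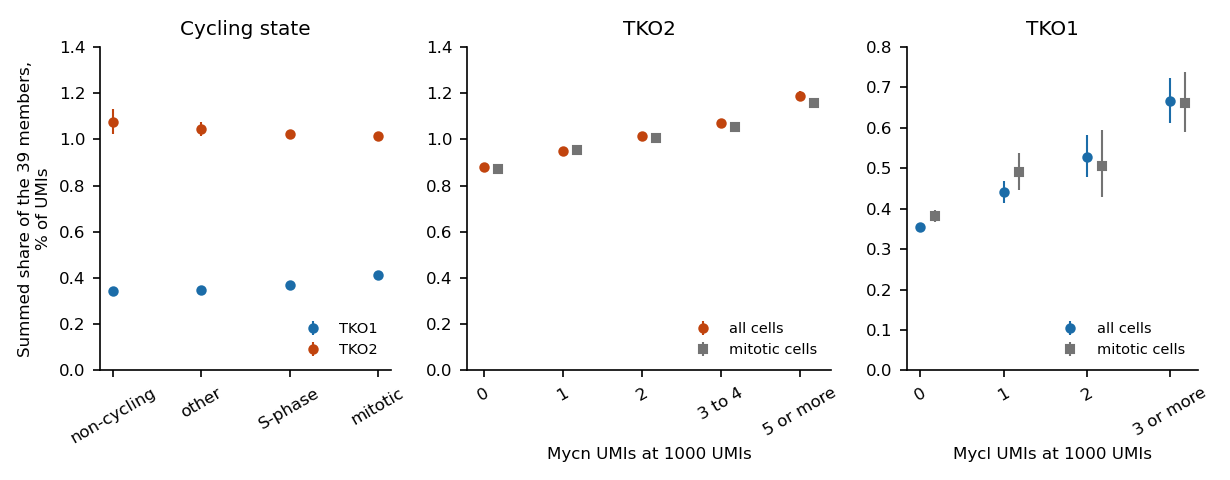
Summed share of the 39 members (% of UMIs, with exact 95% Poisson intervals) by cycling state in both tumors (left), by Mycn UMIs in a cell of TKO2 thinned to 1000 UMIs (middle) and by Mycl UMIs in a cell of TKO1 (right, with a shorter axis). Grey squares are mitotic cells alone. The share goes from 0.880% to 1.19% with Mycn and from 0.356% to 0.665% with Mycl. From non-cycling to mitotic cells it goes from 0.343% to 0.413% in TKO1 and from 1.08% to 1.02% in TKO2.

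**Figure D5:**
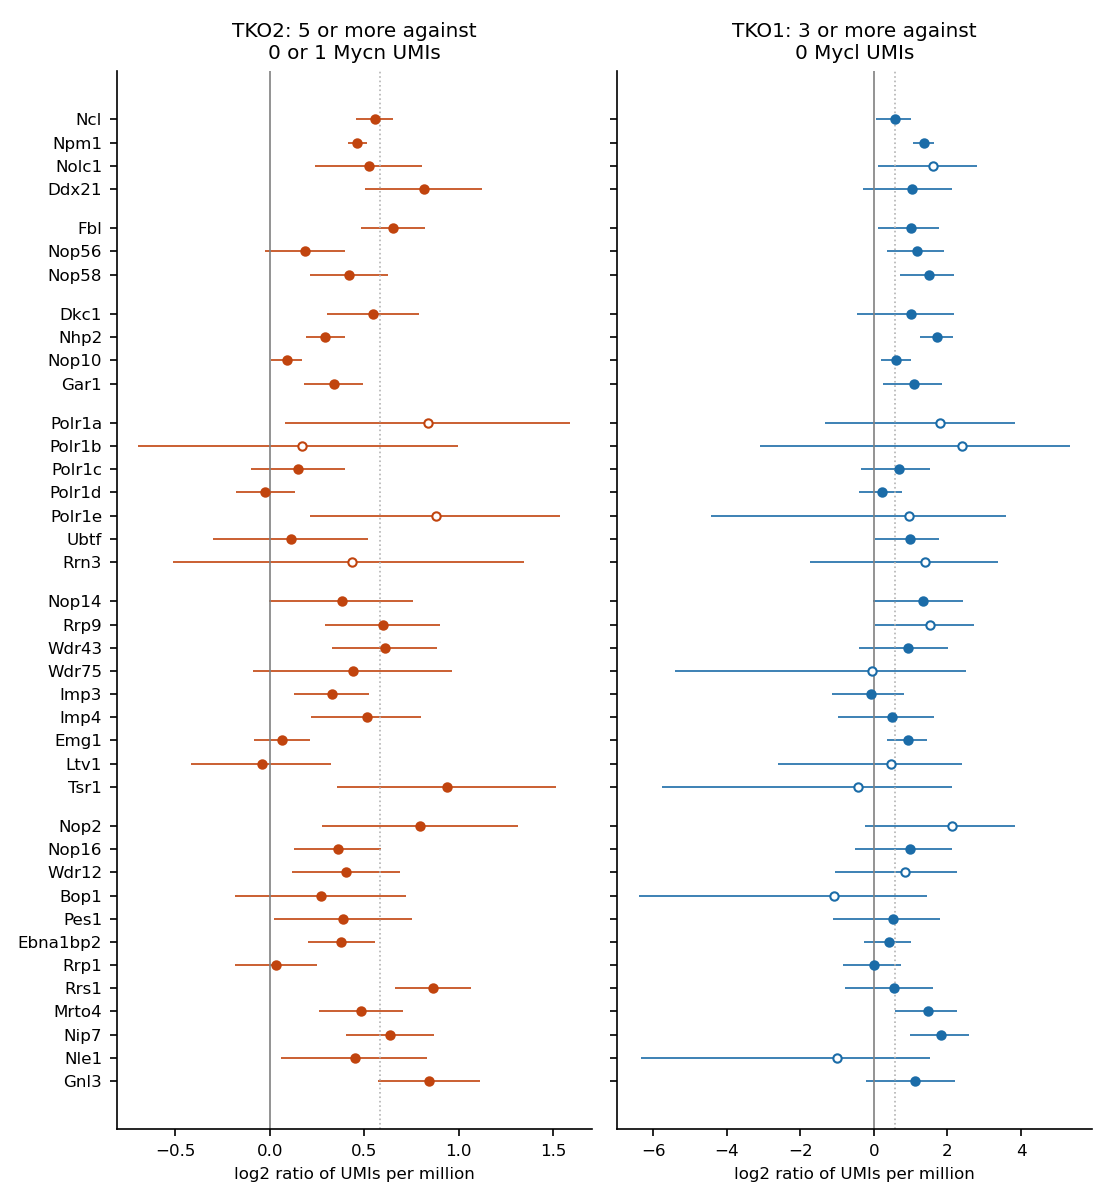
Log2 ratio of each member between Mycn-high and Mycn-low cells of TKO2 (left) and between Mycl-high and Mycl-low cells of TKO1 (right), with exact 95% intervals, in the order of the roles; the axes differ in scale. Filled points have at least 100 UMIs over both sides, the dotted line is 1.5-fold, and 9 filled points on the left and 18 on the right lie beyond it.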

How the data were processed

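One tumor from each of 2 mice was dissociated by the authors, sorted for live cells and sequenced as a 10x Chromium library. The deposited values are raw UMI counts for each gene in each barcode; the submitters' processing notes name Cell Ranger, Seurat and mm10, with versions not given in the sources used here. How UMIs of near-identical copies (pseudogenes of Npm1, for example) were assigned is not known, nor whether strand was used, so overlapping genes cannot be told apart.

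Cells with more than 500 detected genes were kept, at total UMIs of 4566658 and 8105281. Each tumor was clustered with Seurat 5.3.0 (1000 variable genes without the members, 10 components, resolution 0.8). A class other than neuroendocrine needed 3 markers at least 4-fold above the other cells and a marker sum above that of the neuroendocrine list; a neuroendocrine-like cluster needed 3 markers at least 2-fold above macrophage-like cells. Scrublet (scanpy 1.11.5) called 0 doublets, so the cells above the 95th percentile of its score were left out as an alternative.

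UMIs were summed per class and compared as shares, with exact Poisson, Clopper-Pearson and conditional binomial intervals (Python 3.11.15, scipy 1.17.1, numpy 2.4.6), in R 4.3.3 with edgeR 4.0.16 for TMM factors only. With 1 library per tumor there was no test; a gene was called at 1.5-fold with at least 100 UMIs over both sides. States, Mycn (high at 5, low at 0 or 1) and Mycl (high at 3, low at 0) were read after thinning to 1000 UMIs with seed 1. The depth limits values of genes with few UMIs. Steps were tested on simulated data. The members and lists were chosen with earlier results of these data known. The text names the members, the Myc family, markers, and the 3 genes of the wider lists that differed most each way, of which 1 is not reported here. Alternatives covered filters, clustering, doublets, scaling, thinning and thresholds.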

Additional observations from a re-analysis of the deposited data

Results flagged for a closer look

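The summed share of mitotic and S-phase cells lay on opposite sides of non-cycling cells in the 2 tumors. The log2 ratio of the summed member share to that of non-cycling cells was 0.27 for mitotic and 0.11 for S-phase cells of TKO1, and -0.084 and -0.073 for those of TKO2. The direction in TKO2 was not stable: the interval for S-phase cells holds 0 (-0.15 to 0.004), both ratios were above 0 at 1500 UMIs (0.034 and 0.041), and the median of the members in mitotic cells was 0.078. Of 15 members counted in mitotic cells of both tumors, 6 were above 0 in TKO1 and below in TKO2, against 17.9% of 2359 genes. Another 6 were above 0 in both, against 35.1% of these genes. Nhp2, a box H/ACA protein, was above 0 in mitotic and S-phase cells of TKO1, at 0.98 and 0.60. It was below 0 in those of TKO2, at -0.45 and -0.35. The difference was not tested, since each tumor has 1 library, and the non-cycling side of TKO2 has 74 cells. Barcodes with 500 or fewer detected genes, which no comparison used, also held member UMIs, at 0.348% (0.335 to 0.362) of the UMIs of 1321 barcodes of TKO1 and 0.793% (0.753 to 0.835) of those of 248 barcodes of TKO2.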

How the results depend on the processing

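No paired analysis was possible because each tumor has 1 library, and no replicate could be left out. Of 205 alternative values, 146 moved by less than the counting interval or by less than 1.5 times for counts, 56 moved by more and 3 that had an interval without 0 changed sign; the cause was not tested. The count of members higher in TKO2 (33) was 25 to 36 under 11 alternatives. Values are log2 ratios of the summed share unless called counts. The number of members that a count is taken from changes with the minimum, the depth and the cells. Outside the scalings of the tumor comparison, no share over all genes was taken for the alternative counts.

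The ratio of TKO2 to TKO1 (1.45) was 1.68 without mitochondria-encoded and ribosomal protein genes in the total, 1.165 without Ncl and Npm1, 1.25 as the median of the members, 1.83 with TMM factors, 1.49 without the 3 clusters led by markers of another type, 1.65 in non-cycling cells and 1.31 in cells with 0 Mycn UMIs (TKO2) or 0 Mycl UMIs (TKO1). Cells with 0 UMIs were read at 1000 UMIs. Over all UMIs they held 603 CPM of Mycn in TKO2 and 35.9 CPM of Mycl in TKO1. The count of members higher in TKO1 (1) was 0 without mitochondria-encoded and ribosomal protein genes, with TMM factors and at 2-fold. Of the calls over all genes, 33.4% were higher in TKO2 on the CPM scale, 46.0% without those genes, 54.8% with TMM factors and 47.7% relative to the median. As a share of all counted genes, called or not, these were 18.6%, 25.2%, 30.7% and 26.2% in the same order.

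With more than 1000 detected genes per cell, macrophage-like against neuroendocrine-like cells gave -0.139 (TKO1) and -0.620 (TKO2). In TKO2 it was -1.23 without mitochondria-encoded and ribosomal protein genes, -0.961 without Ncl and Npm1 and -1.43 with 0 Mycn UMIs.

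Mitotic against non-cycling cells of TKO1 gave 0.155 at 1500 UMIs and 0.144 with 0 Mycl UMIs. In TKO2 it reversed to 0.0782 as the median of the members and to 0.034 at 1500 UMIs, and was -0.179 without mitochondria-encoded and ribosomal protein genes, -0.288 above 1000 genes, -0.175 without the 2 such clusters of TKO2 and -0.00298 on thinned UMIs. S-phase cells gave 0.215 (TKO1) and -0.229 (TKO2) above 1000 genes, 0.00312 and 0.0414 at 1500 UMIs, where the sign in TKO2 changed from -0.073, whose interval holds 0, and 0.018 in TKO1 with 0 Mycl UMIs. The count of members higher in mitotic cells of TKO1 (4) was 10 at a minimum of 20 UMIs, 11 with no minimum, 0 at 2-fold, 1 at 1500 UMIs, 1 on thinned UMIs and 2 with mitotic set at 4 UMIs, and the count lower (0) was 1 with no minimum. In TKO2 the count higher (5) was 9 at a minimum of 20 UMIs, 2 at 2-fold, 8 above 1000 genes, 3 on thinned UMIs and 3 with mitotic set at 4, and the count lower (1) was 2 without mitochondria-encoded and ribosomal protein genes, 0 at 2-fold, 6 above 1000 genes, 0 on thinned UMIs, 2 with mitotic set at 4 and 4 without the 2 clusters.

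Mycn-high against Mycn-low cells (0.38) gave 0.415 without mitochondria-encoded and ribosomal protein genes, 0.317 without Ncl and Npm1, 0.417 as the median, 0.481 for at least 8 against 0 UMIs, 0.338 without the 2 clusters, 0.261 in non-cycling and 0.342 in mitotic cells. The count of members higher (9) was 0 at 2-fold and 0 in non-cycling cells, and the count lower (0) was 1 for at least 8 against 0 UMIs. Mycl-high against Mycl-low cells (0.90) gave 1.07 without mitochondria-encoded and ribosomal protein genes and 0.753 for at least 2 UMIs, and reversed to -0.0871 in non-cycling cells, of which 1 was Mycl-high. The restrictions to cells with 0 Mycn or Mycl UMIs and to mitotic cells, and leaving out clusters of TKO2, were chosen after seeing the data. Members with few UMIs, such as Polr1b, Rrn3 and Tsr1, are limited by depth.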
